A study of Mus musculus with 12 samples.

Results

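The comparison described here sets 4HC-treated against control E0771 cells, gene by gene, in poly(A)-selected RNA. E0771 is a mammary tumor cell line of the C57BL/6 mouse, and 4HC is 4-hydroperoxy-cyclophosphamide, an activated form of the anticancer drug cyclophosphamide. Cells of the 4HC group were exposed to 4.2 μM drug for 4 h, washed, and collected 68 h later, at 72 h. Control cells received vehicle and were collected at 72 h. A further group received the same 4HC exposure with 10 μg/mL of an anti-IFNAR1 antibody (clone MAR1-5A3), which was kept in the medium until collection, and no group received a control antibody. The last group was given recombinant IFNβ (27.8 U/mL) over 4 h. Its sample labels and the study's methods put collection 2 h after the wash, while the protocol text of the labels says 68 h. If the former holds, values with IFNβ come from a much earlier time than those with 4HC. Each group had 3 libraries from separate cultures, and the labels name no modification of the line in any group. The deposited table holds the mean of each group and no value per library. Expression was given as FPKM, the number of read fragments of a gene scaled to its transcript length and to the size of the library. Genes were compared when the mean reached 0.5 FPKM in either group, which kept 11016 of the 24197 genes in the table. The difference of a gene is log2 of its 4HC mean over its control mean after 0.1 FPKM was added to each, so that it understates the change of genes at low levels. Without values per library, no SD or test could be computed for these differences, the p-values of the authors were not used, and a gene is called higher or lower when its means differ by at least 2-fold on this scale.

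The compound breaks down in medium to the metabolite that yields phosphoramide mustard, an alkylating agent that crosslinks the strands of DNA. Such lesions are known to stall replication forks and to stabilize the transcription factor p53, which switches on cell cycle inhibitors and death receptors. Nucleic acid that reaches the cytosol after DNA damage can be read by innate sensors, which act through IRF3 and NF-κB to induce type I interferons and inflammatory cytokines. Type I interferons bind the receptor chain IFNAR1 and, through transcription factors that include STAT2 and IRF9, switch on interferon-stimulated genes (ISG).

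At 72 h, far more genes stood higher with 4HC than lower. Among the 11016 genes compared, 559 (5.07%) were at least 2-fold higher and 49 (0.445%) at least 2-fold lower. The means of 9520 genes (86.4%) lay within 1.5-fold of each other, and the median difference was -0.01. Of the 559 higher genes, 286 had reached 0.5 FPKM in control cells and 273 passed the minimum only through the 4HC group. All 495 genes that passed it only through 4HC had to lie above control, though not by 2-fold. Among the 10521 genes at 0.5 FPKM or more in control, 2.72% were higher and 0.466% lower. At least 4-fold differences were seen for 204 higher genes and 5 lower genes. Against the same control libraries, the antibody group had 490 of 10995 genes higher (4.46%) and 49 lower (0.446%), and the IFNβ group 234 of 10677 higher (2.19%) and 34 lower (0.318%). The 559 genes higher with 4HC held 1.01% of all FPKM in control cells and 3.77% with 4HC. In bulk RNA of this kind, a lower value from fewer cells of a type cannot be told apart from less RNA per cell.

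**Figure D1:**
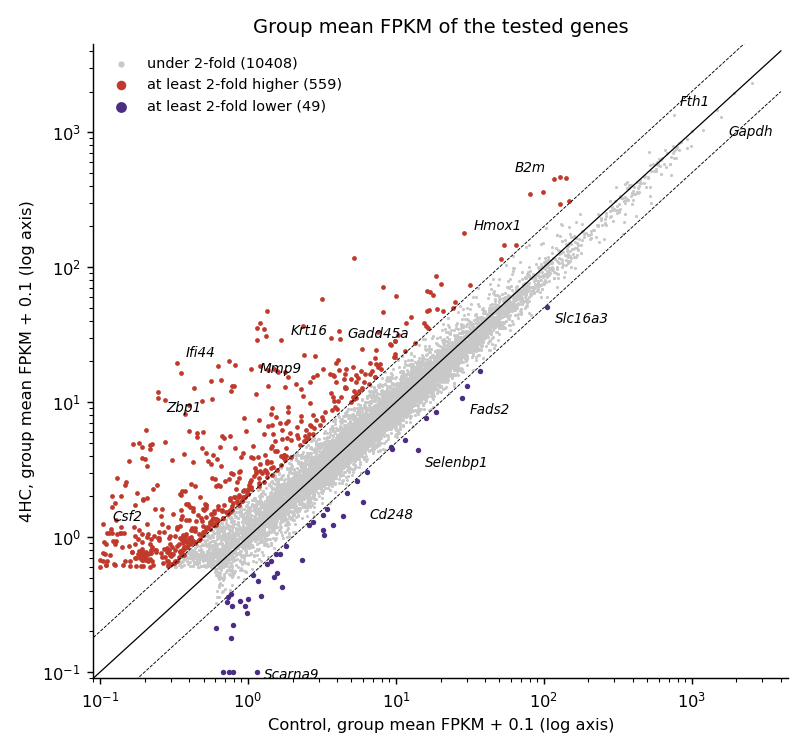
Group mean FPKM plus 0.1 in control (horizontal) and 4HC (vertical) for the 11016 genes compared, both axes logarithmic. The solid line marks equal means and the dashed lines 2-fold differences. Of the 559 higher genes (red), 204 differ by at least 4-fold, against 5 of the 49 lower genes (purple), 4 of which are listed at 0 with 4HC.

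The difference varied with the level of a gene. Genes with a mean of 0.25 to 1 FPKM over both groups had a median difference of 0.36 (1098 genes), and 20.9% of them were called higher. From 10 to 30 FPKM the median was -0.10 (2682 genes), and above 100 FPKM it was -0.14 (269 genes). By length of the longest annotated transcript, the 4HC medians stayed between -0.02 and 0.01. The share of genes called did vary with length. With 4HC, 11.1% were called higher and 3.46% lower up to 1000 bases, against 2.11% and 0.09% above 5000 bases. The medians of the antibody group moved from 0.25 for transcripts of up to 1000 bases to -0.13 above 5000 bases, and those of the IFNβ group from 0.08 to -0.11, both against the same control. The part of these shifts in the list medians was not tested, and where medians are small the value left after the median of genes of like length and level is taken away is given beside them.

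**Figure D2:**
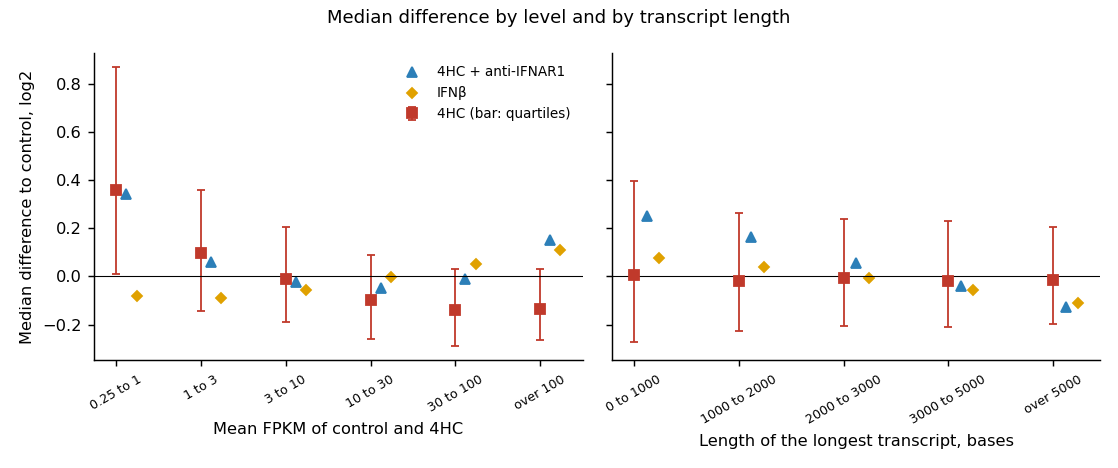
Median difference to control in log2(FPKM + 0.1), for the tested genes in bins of mean FPKM (left) and of transcript length (right). Squares are 4HC with bars from the lower to the upper quartile of genes, triangles 4HC with anti-IFNAR1, and diamonds IFNβ. The 4HC medians go from 0.36 in the lowest level bin to -0.14 in the highest, and are flat over length. The share of genes called higher, which is not drawn, falls with length.

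E0771 cells were checked against markers of the cell types a culture could hold. The epithelial keratin gene Krt8 was present (70.2 FPKM in control cells, 46.5 FPKM after 4HC, log2 difference -0.59), but its usual companions Krt18, Krt19, Epcam and Cdh1 were each under 0.1 FPKM in all groups. The mesenchymal filament gene Vim was high in both groups (785 FPKM in control cells, 752 FPKM after 4HC, log2 difference -0.06), and Fn1 and Thy1 were near 0. Summed over 7 leukocyte markers, expression was 0.127 FPKM in control and 0.212 FPKM with 4HC, with 4 of the 7 at 0 in either group. The sum of 7 macrophage and myeloid markers was 2.12 and 5.95 FPKM, nearly all of it Cd68 and Lyz2, while Emr1, which defines macrophages, reached 0.0155 FPKM with 4HC. Endothelial markers summed to 0.680 and 0.606 FPKM.

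Most of the highest genes were ISGs. Ifi44, an interferon-induced cytosolic protein encoded at chr3:151393886-151412923 (build mm9), had the highest difference of any ranked gene (0.228 FPKM in control cells, 19.5 FPKM after 4HC, log2 difference 5.90). Slfn2, a Schlafen family member of immune cell quiescence, followed (0.147 FPKM in control cells, 11.7 FPKM after 4HC, log2 difference 5.58). Oas2, which makes the 2-5A messenger that activates RNase L, was next in order (0.252 FPKM in control cells, 16.2 FPKM after 4HC, log2 difference 5.53). Zbp1, a sensor of Z-form nucleic acid that can start necroptosis, was also among the 4 highest (0.145 FPKM in control cells, 10.7 FPKM after 4HC, log2 difference 5.46). Of the 48 core ISGs listed, 45 passed the minimum and all 45 were called higher, as were all 32 that passed it through control cells, against 5.07% of all genes compared. The median difference was 4.07 over the 45, and 3.25 over the 32 that passed through control cells. All 45 genes together had medians of 1.00 with the antibody added and 4.53 with IFNβ. At the low end of the list, Ifitm3, which blocks virus entry, was already abundant in control (147 FPKM in control cells, 308 FPKM after 4HC, log2 difference 1.06). The Oas1 genes are near-identical copies, so that their split of reads is uncertain.

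Promoter windows from RefSeq (GRCm38.p6, 250 bases before to 50 after each start site) were available for 8126 tested genes. The interferon-stimulated response element, bound by interferon regulatory factors (IRFs), was searched on both strands as a pair of GAAA runs with any 2 bases between them. It was found for 3.75% of tested genes with a window, for 18.4% of the 348 higher genes with one, and for 21 of 33 core ISGs. None of 14 lower genes held it. The AP-1 site, TGA and TCA around any base, was found for 6.08% of tested genes, 17.0% of the higher and none of the 14 lower genes, for 2 of 11 matrix proteases and inhibitors and for none of 23 MAP kinase feedback and immediate early genes. The upstream window of Ifit3, the core ISG of largest difference whose upstream bases hold the motif (0.176 FPKM in control cells, 10.3 FPKM after 4HC, log2 difference 5.23), is shown because it carries the motif in duplicate. Capitals mark the matches, which read on the reverse strand and begin 156 and 122 bases before the start site (chr19:34583279-34583528, plus strand).
Ifit3: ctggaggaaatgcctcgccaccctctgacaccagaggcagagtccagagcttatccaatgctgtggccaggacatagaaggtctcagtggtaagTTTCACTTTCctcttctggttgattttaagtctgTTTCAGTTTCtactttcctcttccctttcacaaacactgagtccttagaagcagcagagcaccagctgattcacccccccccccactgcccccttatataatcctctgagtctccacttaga
A match describes these letters only and was not tested for binding.

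Genes of antigen presentation by MHC class I stood higher. This pathway cuts cytosolic proteins in the proteasome, pumps the peptides into the endoplasmic reticulum and displays them on class I chains. All 18 members that passed the minimum were above 0 and 15 of them were called higher, with a median of 1.78, against 5.07% of all genes called higher and 48.4% above 0. Of the 16 that passed the minimum through control cells, 13 were called. Psmb9, a catalytic subunit of the immunoproteasome, differed most (1.04 FPKM in control cells, 11.4 FPKM after 4HC, log2 difference 3.33). Tap1, a chain of the peptide pump, had a mean of 3.96 FPKM in control and 20.3 FPKM with the drug (log2 difference 2.33). Nlrc5, the transactivator of class I genes, was also higher (1.55 FPKM in control cells, 6.90 FPKM after 4HC, log2 difference 2.09). In absolute terms, B2m, the invariant light chain, gained among the most of any gene (117 FPKM in control cells, 446 FPKM after 4HC, log2 difference 1.92). The antibody and IFNβ groups both had B2m at 257 FPKM. H2-D1 went from 98.4 to 363 FPKM, and the entry H2-l overlaps it in the table, so that both may count the same reads. Erap1, which trims peptides, did not reach 2-fold (5.64 FPKM in control cells, 8.06 FPKM after 4HC, log2 difference 0.51). Of the class II genes only 3 of 8 passed the minimum, and Cd74, the invariant chain, was the member called higher (0.348 FPKM in control cells, 5.85 FPKM after 4HC, log2 difference 3.73), at 5.92 FPKM with the antibody and 0.440 FPKM with IFNβ.

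Inflammatory mediators that signal to leukocytes formed the next tier. Of 29 chemokine genes, 11 passed the minimum, 10 were called higher, and 5 of these passed it only through 4HC. Over all genes compared, 5.07% were called higher. The median was 2.98, beside 2.67 with the antibody and 0.19 with IFNβ. Ccl5, a chemokine that attracts T cells, was among the most abundant (3.04 FPKM in control cells, 58.0 FPKM after 4HC, log2 difference 4.21). Ccl2 and Ccl7, which attract monocytes through CCR2, reached 71.5 and 36.6 FPKM from 8.06 and 2.26 FPKM. Cxcl10, which attracts T cells through CXCR3, was the highest of the list (1.04 FPKM in control cells, 28.6 FPKM after 4HC, log2 difference 4.65). It had 18.5 FPKM with the antibody and 11.2 FPKM with IFNβ. Among cytokines, Csf1, the macrophage growth factor, was the most abundant member called higher apart from Spp1 (16.7 FPKM in control cells, 48.0 FPKM after 4HC, log2 difference 1.52). Csf2, the granulocyte-macrophage growth factor, was nearly absent from control (0.00492 FPKM in control cells, 1.15 FPKM after 4HC, log2 difference 3.57). Tnf reached 1.503 FPKM from 0.134 FPKM. Flt3l and Kitl, which support dendritic cell and stem cell growth, differed little (log2 differences 0.08 and 0.24).

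Many NF-κB targets were also higher. NF-κB is held in the cytosol by IκB proteins, which it induces itself as feedback. Of 26 members that passed, 14 were called higher and 25 lay above 0, with a median of 1.47 beside 0.08 with IFNβ. Of the 14, 5 passed the minimum only through 4HC and so had to lie above control. Among the 21 that passed through control, 9 were called (2.72% of all such genes were) and the median was 0.86. Nfkbia, which encodes IκBα, was the most abundant of those called (16.2 FPKM in control cells, 47.5 FPKM after 4HC, log2 difference 1.55). Another feedback inhibitor, Nfkbie, went from 0.583 to 5.35 FPKM (log2 difference 3.00). Tnfaip3, the ubiquitin-editing enzyme A20, was also called higher (0.501 FPKM in control cells, 2.59 FPKM after 4HC, log2 difference 2.16). Icam1, the adhesion ligand of leukocyte integrins, differed more (1.41 FPKM in control cells, 17.6 FPKM after 4HC, log2 difference 3.55), as did C3, the central complement component (8.11 FPKM in control cells, 46.7 FPKM after 4HC, log2 difference 2.51). Traf1, an adaptor of TNF receptors, had a log2 difference of 2.79. The subunits themselves differed less, with 0.47 for Rela and 0.13 for Nfkb1. Sod2 and Lcn2, which are known NF-κB targets, did not reach 2-fold (-0.20 and 0.28). The κB site, searched on both strands as GGG, any 2 bases and TTTCC, was found for 2.06% of tested genes with a window, 6.32% of the higher genes, 1 of the 14 lower genes and 6 of 20 members of this list. Tnfaip3 is shown as the member of largest difference that holds it upstream, with the match in capitals 12 bases before its start site (chr10:19015411-19015660, minus strand).
Tnfaip3: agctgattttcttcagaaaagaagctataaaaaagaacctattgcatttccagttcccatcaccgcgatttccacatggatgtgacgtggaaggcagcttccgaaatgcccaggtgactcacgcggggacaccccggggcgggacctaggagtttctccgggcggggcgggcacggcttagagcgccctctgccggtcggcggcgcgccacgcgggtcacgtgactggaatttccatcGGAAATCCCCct
The match lies on the opposite strand and so appears as its reverse complement.

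A second ranking took the 30 highest genes whose IFNβ mean lay within 1.5-fold of control. It was added after values were seen and describes 4HC differences that IFNβ-treated cells did not show by that limit. Krt16, a keratin of stressed and healing epithelium at chr11:100107405-100110216 in mm9, followed Ccl5 in this ranking (1.58 FPKM in control cells, 28.7 FPKM after 4HC, log2 difference 4.10), with 27.5 FPKM under the antibody and 2.39 FPKM with IFNβ. Mmp9, the gelatinase that cuts basement membrane collagen, was next (0.941 FPKM in control cells, 17.4 FPKM after 4HC, log2 difference 4.08). Slc6a4, the serotonin transporter, went from 0.128 to 2.18 FPKM. Spib, an Ets factor of lymphoid cells, reached 1.09 FPKM from 0.0374 FPKM. Nbl1, a secreted antagonist of BMP ligands, had 0.419 FPKM in control and 4.08 FPKM with 4HC. Sprr1a and S100a7a, which belong to the program of cornifying epithelium, had 1.15 and 1.98 FPKM with 4HC against 0.108 and 0.245 FPKM. Ccr7, the homing receptor of dendritic cells and T cells, was at 1.37 FPKM and Sele, the endothelial selectin, at 1.14 FPKM with 4HC. These are genes named for leukocytes, skin or endothelium that were expressed at low levels here, and leukocyte and endothelial marker sums were under 1 FPKM in both groups.

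**Figure D3:**
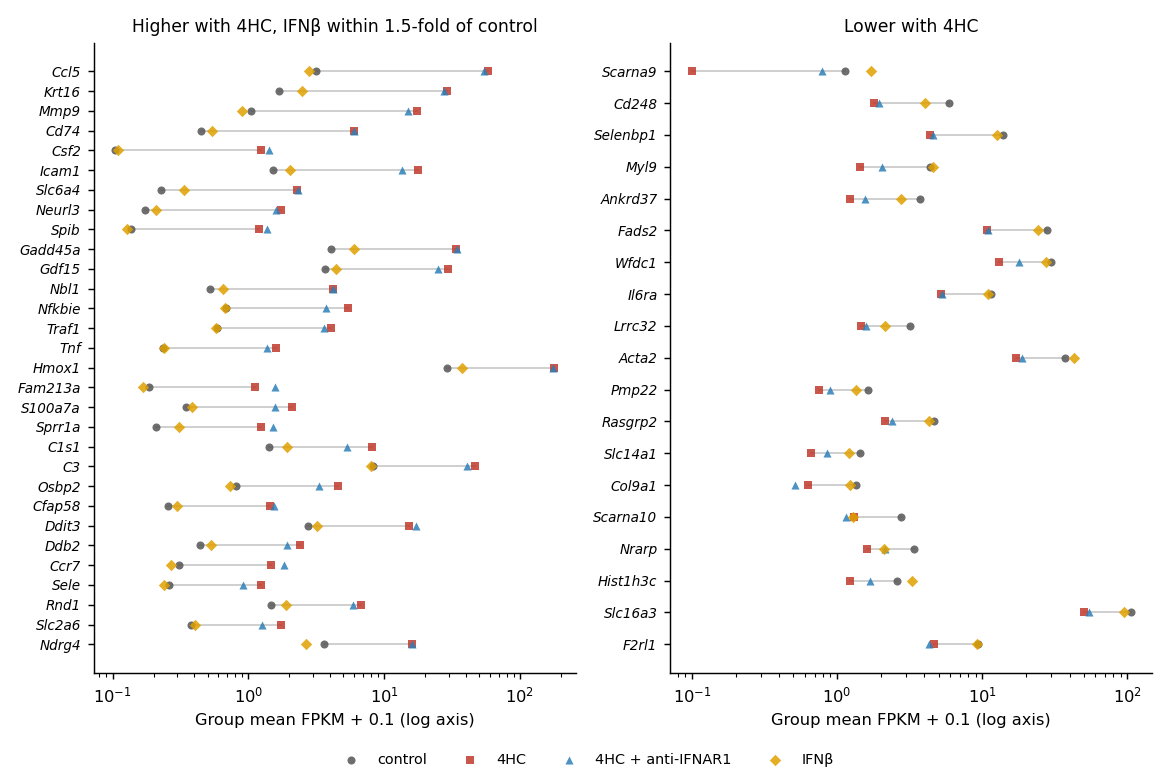
Group mean FPKM plus 0.1 (log axis) in control (circles), 4HC (squares), 4HC with anti-IFNAR1 (triangles) and IFNβ (diamonds). The left panel holds the 30 highest ranked genes whose IFNβ mean lay within 1.5-fold of control, and the right panel genes from the 20 lowest ranked. Krt16 stands at 28.7 FPKM with 4HC and 27.5 FPKM with the antibody, and the diamonds of the left panel sit near the circles because the ranking asked for it.

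Among p53 targets, 10 of 33 that passed the minimum were called higher, 3 of them passing only through 4HC, none was lower, and the median was 0.37, against 5.07% of all genes called higher. Among the 30 that passed through control, 7 were called and the median was 0.29. Trp53 itself, which encodes p53, had a log2 difference of 0.25. Gadd45a, a growth arrest protein that binds cell cycle kinases, was highest (3.98 FPKM in control cells, 33.6 FPKM after 4HC, log2 difference 3.05). Gdf15, a stress-induced hormone of the TGF-β family, was close to it (3.55 FPKM in control cells, 29.5 FPKM after 4HC, log2 difference 3.02). Fas, the death receptor, went from 0.549 to 4.57 FPKM. Ddb2, which recognizes DNA lesions for excision repair, reached 2.30 FPKM from 0.337 FPKM. Cdkn1a, which encodes the cyclin-dependent kinase inhibitor p21, was the most abundant of those called (11.5 FPKM in control cells, 38.2 FPKM after 4HC, log2 difference 1.72), and had 22.2 FPKM with IFNβ. Mdm2, the ubiquitin ligase that returns p53 to low levels, was higher too (7.69 FPKM in control cells, 18.9 FPKM after 4HC, log2 difference 1.28). On the death side, Pmaip1 (Noxa) and Bbc3 (Puma) had log2 differences of 0.95 and 0.80, under the 2-fold threshold. Zmat3, Aen and Ei24, also listed as targets, were at -0.10, -0.08 and -0.57.

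Most proliferation genes lay below 0 by small amounts. Of 38 mitosis genes, 37 were below 0, none reached 2-fold, and the median was -0.34, against -0.01 for all genes compared and 51.6% of them below 0. Mki67, the proliferation antigen, was the lowest of them (10.3 FPKM in control cells, 5.93 FPKM after 4HC, log2 difference -0.78). Ccna2, the cyclin of S phase and G2, went from 63.9 to 44.4 FPKM. Among 36 replication genes, 33 were below 0 with a median of -0.25. Tk1, which salvages thymidine, was lowest (43.0 FPKM in control cells, 24.3 FPKM after 4HC, log2 difference -0.82), and the ribonucleotide reductase subunits Rrm1 and Rrm2 had -0.61 and -0.58. Less the median of genes of like length and level, the list medians were -0.26 for mitosis and -0.18 for replication. Cyclins and CDK inhibitors other than Cdkn1a gave no call, with E2f7 and E2f8, repressors of the E2F program, at -0.74 and -0.70.

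Genes that repair crosslinks and breaks differed little between the means. Of 41 members, all of which passed through control, 1 was called higher and none lower, and the median was -0.10. Among all such genes 2.72% were called higher, which is close to the share of this list. The called gene was Xrcc5, the Ku80 subunit of end joining, at low level (0.805 FPKM in control cells, 1.75 FPKM after 4HC, log2 difference 1.03). Xrcc3, of homologous recombination, was the lowest (1.96 FPKM in control cells, 1.15 FPKM after 4HC, log2 difference -0.72). Fancb and Palb2, of the Fanconi anemia and BRCA pathway, had -0.58 and -0.43. Aldehyde dehydrogenases, a family that can oxidize the aldehyde form of the activated drug, gave no call among 10 that passed, with differences from -0.45 to 0.28. Aldh2 was the most abundant (58.2 FPKM in control cells, 57.2 FPKM after 4HC, log2 difference -0.02). None of 20 ABC transporters was called, and Abcg2, a drug efflux pump, was highest among them (6.46 FPKM in control cells, 9.48 FPKM after 4HC, log2 difference 0.55).

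The integrated stress response acts through the factor ATF4 when translation is slowed by phosphorylated eIF2α. Of 27 of its genes that passed, 8 were called higher and none lower, with a median of 0.38. Of the 25 that passed through control, 7 were called, against 2.72% of all such genes. Atf3, a transcription factor induced by many stresses, was highest (1.68 FPKM in control cells, 12.9 FPKM after 4HC, log2 difference 2.87). Ddit3, which encodes CHOP, was close behind (2.66 FPKM in control cells, 15.2 FPKM after 4HC, log2 difference 2.47). Nupr1, a small stress-induced chromatin protein, was the most abundant called member after Trib3 (10.2 FPKM in control cells, 31.1 FPKM after 4HC, log2 difference 1.60). Trib3, a pseudokinase that binds ATF4 and CHOP, had 16.4 FPKM in control and 35.1 FPKM with 4HC. Several amino acid synthesis genes of the same list were flat or lower, with 0.01 for Asns, -0.45 for Psat1 and -0.36 for Shmt2. Among its amino acid transporters, Slc7a5 had -0.50 and Slc7a11 had 0.87. The C/EBP-ATF element, searched as TTGCATCA on both strands, was found for 0.714% of tested genes with a window, 2.59% of the higher genes, 1 of the 14 lower genes and 5 of 21 members of this list. Atf3, the member of largest difference with a match, is shown with the match in capitals, 110 bases before its start site (chr1:191183334-191183583, minus strand).
Atf3: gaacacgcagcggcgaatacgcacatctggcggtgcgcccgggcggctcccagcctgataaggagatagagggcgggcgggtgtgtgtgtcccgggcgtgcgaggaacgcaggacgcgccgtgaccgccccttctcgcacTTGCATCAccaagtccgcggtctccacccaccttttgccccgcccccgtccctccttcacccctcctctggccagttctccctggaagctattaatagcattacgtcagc
Chaperones of the endoplasmic reticulum differed by small amounts. Dnajb9, a co-chaperone of BiP, was the one called (5.27 FPKM in control cells, 10.7 FPKM after 4HC, log2 difference 1.00), and Hspa5, BiP itself, had 123 FPKM in control and 172 FPKM with 4HC. Of 14 heat shock genes, all of which passed through control, Hspa1b (1.41) and Cryab (1.09) were called higher, against 2.72% of all such genes.

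Iron and redox genes were led by heme breakdown and iron storage. Hmox1, which frees iron from heme, went from 28.9 to 178 FPKM. It was the one NRF2 target called among 29, against 5.07% of all genes compared. Fth1 and Ftl1, the heavy and light chains of ferritin, were both among the 10 largest gains in FPKM. Fth1 stood at 756 FPKM in control and 1346 FPKM with the drug (log2 difference 0.83). Ftl1 had 512 and 709 FPKM (log2 difference 0.47). The ferritin genes have processed copies in the genome, so that their counts may include or lose reads shared with these. Tfrc, which imports iron, had the opposite sign (42.6 FPKM in control cells, 32.5 FPKM after 4HC, log2 difference -0.39). Gclm, of glutathione synthesis, and Slc7a11, the cystine importer, were at 0.62 and 0.87. Sqstm1, the autophagy receptor p62, was called higher at a high level (128 FPKM in control cells, 291 FPKM after 4HC, log2 difference 1.19), with 127 FPKM in the IFNβ group.

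Most lysosomal genes lay above 0. Of 26 that passed, all through control as well, 24 were above 0 and 4 were called higher, against 48.4% of all genes above 0 and 2.72% of those at 0.5 FPKM in control called higher. The median was 0.48 beside 0.58 with the antibody and -0.06 with IFNβ. Taking away the median of genes of like length and level left 0.62. The sum over the listed genes was 1012 FPKM in control and 1555 FPKM with 4HC. Cd68, a lysosomal glycoprotein also used as a macrophage marker, was highest (0.795 FPKM in control cells, 3.80 FPKM after 4HC, log2 difference 2.12). All 7 myeloid markers were higher with 4HC than in control. Csf1r had 0.00435 FPKM in control and 0.145 FPKM with 4HC, Itgax 0.0126 and 0.148 FPKM, Cx3cr1 0.00622 and 0.0417 FPKM, Itgam 0.00322 and 0.0199 FPKM, Emr1 0 and 0.0155 FPKM, and Lyz2 1.30 and 1.78 FPKM. At such low levels, some markers of other cell types were also higher with 4HC. Cdh5 had 0.0135 FPKM in control and 0.0683 FPKM with 4HC, and Krt19 0.00370 and 0.0262 FPKM, while Cdh1 had 0.0463 and 0.0439 FPKM. Over the whole table, 8327 genes were listed at 0 in control and 6339 with 4HC. The part of myeloid cells in the lysosomal values was not tested. Npc2, which hands cholesterol out of the lysosome, was more abundant (31.5 FPKM in control cells, 73.6 FPKM after 4HC, log2 difference 1.22). Gpnmb, a glycoprotein of stressed lysosomes, was called too (15.8 FPKM in control cells, 36.5 FPKM after 4HC, log2 difference 1.21). The proteases cathepsin L and cathepsin B, just under 2-fold, stood at 120.3 and 104 FPKM with 4HC against 61.3 and 55.3 FPKM for Ctsl and Ctsb. Grn, progranulin, was at 103 and 194 FPKM. Tfeb, a transcription factor of lysosomal genes, lay below 0 (1.94 FPKM in control cells, 1.23 FPKM after 4HC, log2 difference -0.62).

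Several immediate early genes and phosphatases that restrain MAP kinases stood higher 68 h after the drug was removed. Of 31 members that passed, all through control as well, 7 were called higher and none lower, with a median of 0.65, against 2.72% of all such genes called higher. Dusp1, which dephosphorylates p38 and JNK, was highest (4.0 FPKM in control cells, 17.1 FPKM after 4HC, log2 difference 2.07). Junb, a subunit of AP-1, had 9.76 FPKM in control and 28.1 FPKM with 4HC. Myc, the growth regulator, was the most abundant called member (64.2 FPKM in control cells, 145 FPKM after 4HC, log2 difference 1.17). Etv5 and Etv4, Ets factors downstream of ERK, stood at the other end (-0.81 and -0.72). Among ligands of receptor tyrosine kinases, Areg, Hbegf and Btc, which bind EGFR or ERBB4, were called higher. Areg went from 1.82 to 5.81 FPKM, Hbegf from 2.37 to 6.13 FPKM and Btc from 0.585 to 1.62 FPKM. Fgf21, a hormone also listed under the integrated stress response, had 0.119 FPKM in control and 0.792 FPKM with 4HC.

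Developmental signaling pathways gave few calls. The Hedgehog pathway includes the receptor Ptch1 and the factor Gli1, which are also its readouts. Of its 8 genes that passed, 7 were below 0, against 51.6% of all genes compared. None reached 2-fold, and the median was -0.37. Ptch1 had 10.4 FPKM in control, 5.83 FPKM with 4HC, 4.59 FPKM with the antibody and 8.77 FPKM with IFNβ. Smo, the signal transducer, had 28.3 and 16.5 FPKM (log2 difference -0.77), and Gli1 had -0.52. In the Notch pathway, the ligand Dll1 was called higher (0.106 FPKM in control cells, 1.83 FPKM after 4HC, log2 difference 3.23), while Nrarp, a Notch-induced feedback inhibitor, was called lower (3.30 FPKM in control cells, 1.51 FPKM after 4HC, log2 difference -1.08). Lfng, the fringe enzyme that tunes ligand choice, and Notch1 were at -0.84 and -0.61. Among TGF-β and BMP genes, Skil and Id2 were called higher beside Gdf15, at 1.13 and 1.07. None of 18 WNT genes was called.

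Matrix genes lay on both sides of 0. Among 22 matrix proteins that passed, 7 were called higher and 1 lower, against 5.07% and 0.445% of all genes compared. Their median was 0.00. Of the 7, 2 passed the minimum only through 4HC. Spp1, the secreted phosphoprotein osteopontin, was the most abundant of the higher genes (16.1 FPKM in control cells, 67.0 FPKM after 4HC, log2 difference 2.05). Ecm1 followed it in level (15.3 FPKM in control cells, 38.2 FPKM after 4HC, log2 difference 1.31). Cyr61 and Ctgf, matricellular proteins that are also YAP targets, reached 15.9 and 2.24 FPKM from 3.65 and 0.945 FPKM. The remaining YAP target called was Ankrd1 (0.187 FPKM in control cells, 0.688 FPKM after 4HC, log2 difference 1.46). With IFNβ, Cyr61, Ctgf and Ankrd1 were also above control, at 11.2, 1.77 and 0.643 FPKM. No collagen chain of 12 was called, and their median was -0.16. Col5a3 and Col16a1 marked the ends of that list (0.98 and -0.57). Proteases and their inhibitors lay higher, with 8 of 20 called, against 5.07% of all genes compared, and a median of 0.57. Among the 18 that passed through control, 7 were called, against 2.72% of all such genes, and the median was 0.39. Besides Mmp9, the plasminogen activators Plau (1.22) and Plat (1.22) were called higher. Timp1, which inhibits metalloproteinases, was at 0.01.

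Contractile genes lay lower, with 2 of 23 called and 18 below 0, against 0.445% and 51.6% of all genes compared. Their median was -0.26, or -0.23 less genes of like length and level. Myl9, the regulatory light chain of smooth muscle myosin, was lowest (4.30 FPKM in control cells, 1.33 FPKM after 4HC, log2 difference -1.62). Acta2, smooth muscle actin, was more abundant (36.9 FPKM in control cells, 16.9 FPKM after 4HC, log2 difference -1.12), and stood at 42.8 FPKM with IFNβ. Cnn2, a calponin, and Flna, a filamin that links actin filaments, were at -0.85 and -0.59. Actg1, a cytoplasmic actin, had one of the 10 largest losses in FPKM (723 FPKM in control cells, 483 FPKM after 4HC, log2 difference -0.58). Mesenchymal regulators did not share this direction, as Zeb1, Twist1 and Snai1 had 0.46, 0.24 and 0.17. S100a4, a calcium-binding protein linked to motility, had 345 FPKM in control, 175 FPKM with 4HC, 299 FPKM with the antibody and 371 FPKM with IFNβ, just under 2-fold between the first pair. Among integrins, Itgb3 (1.47) and Itgb7 (1.20) were called higher.

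Fatty acid synthesis had the lowest median of the lists. Of 22 genes of fatty acid synthesis and desaturation, 20 were below 0 and 1 reached 2-fold, with a median of -0.51 and of -0.47 less genes of like length and level. Over all genes compared, 51.6% were below 0 and 0.445% were called lower. Fads2, the desaturase that starts polyunsaturated fatty acid synthesis, was lowest (27.8 FPKM in control cells, 10.7 FPKM after 4HC, log2 difference -1.37). Elovl6, an elongase of long-chain fatty acids, fell just short of the threshold, with 7.63 FPKM in control and 3.78 FPKM with 4HC, as did Srebf1, the factor that switches on the pathway (22.7 FPKM in control cells, 11.5 FPKM after 4HC, log2 difference -0.97). Scd2, a stearoyl-CoA desaturase, was the most abundant (105 FPKM in control cells, 60.3 FPKM after 4HC, log2 difference -0.80). Fasn, the synthase itself, had -0.45, and Me1, which supplies NADPH, lay above 0 (0.47). In the sterol list, Srebf2, the sterol-sensing factor, had -0.84, and Insig1, a target of that factor, had 0.01. The sterol regulatory element, searched as TCACNCCAC on both strands, was found for 1.37% of tested genes with a window, 1.44% of the higher genes, none of 16 sterol genes and 1 of 18 of fatty acid synthesis. Of 16 genes of lipid uptake, storage and oxidation, 3 were called higher and 6 lay below 0, with a median of 0.25. Over all genes compared, 5.07% were called higher. Plin2, the coat protein of lipid droplets, was at 20.6 FPKM in control and 47.0 FPKM with 4HC. Fabp4, a fatty acid carrier of fat cells and macrophages, was also called higher (0.551 FPKM in control cells, 3.28 FPKM after 4HC, log2 difference 2.38). It makes up nearly all of the sum of 3 adipocyte markers, which was 0.580 FPKM in control and 3.33 FPKM with 4HC, while Adipoq stayed under 0.01 FPKM in both.

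In glycolysis, 15 of 21 genes were below 0, against 51.6% of all genes compared. The median was -0.29, or -0.24 less genes of like length and level. Slc16a3, the lactate exporter MCT4, was the one called lower (105 FPKM in control cells, 50.5 FPKM after 4HC, log2 difference -1.06). Along the chain, Pfkl, Tpi1, Pgk1, Pgam1 and Ldha had log2 differences of -0.86, -0.82, -0.53, -0.62 and -0.63. Other enzymes of the chain differed less or lay higher, with -0.18 for Aldoa, 0.06 for Pfkm, -0.14 for Pkm and 0.91 for Eno2. The entry steps were flat, with 0.06 for the glucose transporter Slc2a1, 0.03 for Hk1 and 0.07 for Hk2. In FPKM, Gapdh (1572 and 1284 FPKM), Tpi1 (421 and 239 FPKM) and Ldha (518 and 336 FPKM) were among the 10 largest losses. Of 26 genes of the tricarboxylic acid cycle, 22 were below 0 with a median of -0.23, and of 39 respiratory chain genes 30 were, with a median of -0.21. Less the median of like genes these became -0.11 and -0.08. The same respiratory genes had a median of 0.17 with the antibody, which was not set against like genes. Several glycolytic enzymes are targets of HIF1, the hypoxia factor. Of 27 hypoxia targets, 16 lay below 0 and 2 were called lower, against 51.6% and 0.445% of all genes compared. Selenbp1, a methanethiol oxidase, was lowest (13.9 FPKM in control cells, 4.28 FPKM after 4HC, log2 difference -1.68), and Ankrd37 came after it (3.63 FPKM in control cells, 1.14 FPKM after 4HC, log2 difference -1.59). Vegfa and Ndrg1, from the same list, were on the other side (0.84 and 0.89). The core of the hypoxia response element, ACGTG on either strand, was found for 30.5% of tested genes with a window, 16 of 21 hypoxia targets and 13 of 20 glycolysis genes. Selenbp1 is shown as the lowest member that holds it, with the match in capitals as its reverse complement, starting 204 bases before its start site (chr3:94932833-94933082, plus strand).
Selenbp1: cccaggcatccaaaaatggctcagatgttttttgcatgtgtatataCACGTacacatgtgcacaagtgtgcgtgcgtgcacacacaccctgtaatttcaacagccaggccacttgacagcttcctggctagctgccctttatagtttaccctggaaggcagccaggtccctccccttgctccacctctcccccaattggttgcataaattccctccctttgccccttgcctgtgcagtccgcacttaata
So short a motif is common, as the share of all tested genes shows.

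**Figure D4:**
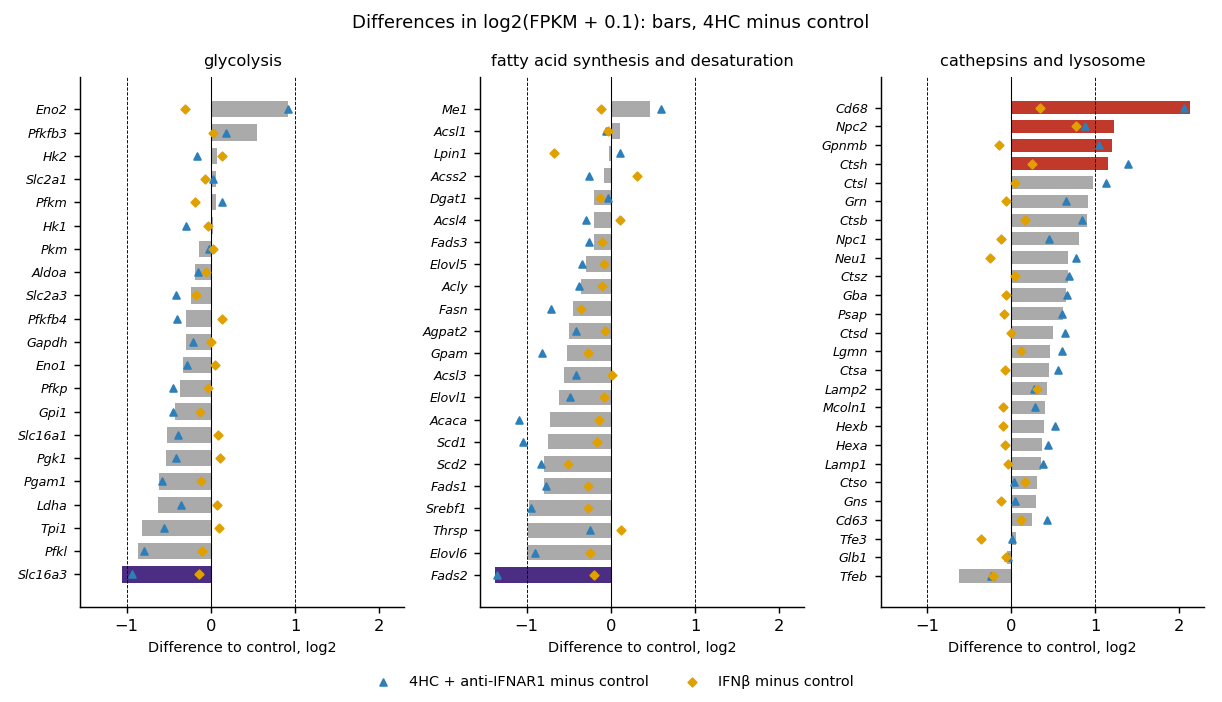
Differences to control in log2(FPKM + 0.1) for members that passed the minimum in the lists of glycolysis, fatty acid synthesis and desaturation, and cathepsins and lysosome, ordered by value. Bars are 4HC (purple at or under -1, red at or above 1), triangles 4HC with anti-IFNAR1 and diamonds IFNβ. Fads2 and Slc16a3 lie at -1.37 and -1.06, and 24 of 26 lysosomal bars lie above 0.

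Genes of transcript and protein production differed by little with 4HC. Of 54 cytosolic ribosomal protein genes, 40 were below 0 with 4HC, against 51.6% of all genes compared. The median was -0.11 with 4HC, beside 0.27 with the antibody and 0.18 with IFNβ. Their 4HC median less genes of like length and level was 0.02, and the antibody and IFNβ medians were not set against like genes. Over all tested genes above 100 FPKM, the medians were 0.15 with the antibody and 0.11 with IFNβ. Proteasome subunits had a median of -0.12 and ribosome biogenesis genes of -0.14, or 0.01 and -0.01 less like genes. Splicing factors were lower by more, with 40 of 45 below 0, against 51.6% of all genes compared. Their median was -0.25, or -0.13 less like genes. Ptbp1, a repressor of exon inclusion, was the lowest of them (95.5 FPKM in control cells, 59.6 FPKM after 4HC, log2 difference -0.68). The SR protein genes Srsf1 and Srsf2 had -0.61 and -0.56. In the chromatin list, Uhrf1, which guides maintenance methylation of DNA, and Cbx5, a heterochromatin protein, were at -0.72 and -0.65, under 2-fold. Histone genes of replication, most of whose RNA carries no poly(A) tail, gave 4 calls higher, 2 of them passing only through 4HC, and 1 lower among 19. Over all genes compared, 5.07% were called higher and 0.445% lower.

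Among 26 caspase and BCL2 family genes, 3 were called higher, against 5.07% of all genes compared, and all 3 were inflammatory caspases. Casp4, which senses cytosolic lipopolysaccharide, differed most (0.566 FPKM in control cells, 5.54 FPKM after 4HC, log2 difference 3.08), and its neighbors in mm9 on chromosome 9, Casp12 and Casp1, were at 1.44 and 1.36. With 0.385 and 0.484 FPKM in control, the latter pair passed the minimum only through 4HC and so had to lie above control. Among the 24 that passed through control, 1 was called, a share close to the 2.72% of all such genes. Casp6 and Casp9, of apoptosis, had -0.35 and -0.28. Gsdmd, the pore protein of pyroptosis, was at 0.79, and Mlkl, the effector of necroptosis, at 0.36. Among G protein-coupled receptors, Ccrl2, which binds chemerin, was called higher (0.0768 FPKM in control cells, 2.01 FPKM after 4HC, log2 difference 3.57) and F2rl1, the protease-activated receptor PAR2, lower (9.20 and 4.54 FPKM). The nitric oxide synthase gene Nos2 and Gch1, which makes its cofactor, reached 0.827 and 2.33 FPKM from 0.0226 and 0.525 FPKM.

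Of the 49 lower genes, 25 carry names passed over in the ranking, 23 of them microRNA entries, which a poly(A) library measures poorly. Cd248, the stromal glycoprotein endosialin, was the lowest ranked gene with a value above 0 in both groups (5.84 FPKM in control cells, 1.71 FPKM after 4HC, log2 difference -1.72), at chr19:5068077-5070639 in mm9. Wfdc1, a secreted protease inhibitor, was more abundant (29.9 FPKM in control cells, 13.01 FPKM after 4HC, log2 difference -1.20). Il6ra, the binding chain of the IL6 receptor, had 11.4 FPKM in control and 5.14 FPKM with 4HC. Lrrc32, which docks latent TGF-β on the cell surface, went from 3.10 to 1.36 FPKM, and Pmp22, a myelin protein found in many cells, from 1.54 to 0.651 FPKM. Rasgrp2, an activator of Rap1, was at -1.12. The small Cajal body RNA Scarna9 was listed at 0 with 4HC and at 1.04 FPKM in control, so that no fold is given. At the threshold, F2rl1 was just inside 2-fold and Elovl6 just outside it on the lower side, and on the higher side Dnajb9 and Tcp11l2 were just inside and Lynx1 just outside.

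Some higher genes lay near one another in the genome. Of the 481 higher genes left after the names passed over in the ranking, each placed at its first location in the mm9 table, 116 fell into 30 runs of at least 3 with gaps of up to 200000 bases. Tested genes that were not called lie inside some runs. The number of runs was not set against that for all tested genes, so it may reflect how densely genes lie. The longest run held 8 genes at chr1:175560989-175961886, all of the tested genes there, and consists mostly of the Ifi200 family of DNA-binding proteins, among them Ifi204 and Mndal, with a median difference of 3.24. At chr17:34056422-34353266, in the MHC, 7 of 21 tested genes were higher, from Tapbp to Tap2. The Oas genes at chr5:121180341-121357534 were higher in 6 of 6. In other runs the IFNβ median was near 0. Relb and Bcl3, a subunit and a cofactor of NF-κB, lay with Pvr and Ceacam16 at chr7:20191570-20506492, with a median of 1.56, beside 0.20 with IFNβ. Many of these runs are gene families whose copies can share reads, so that their members are not independent.

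**Figure D5:**
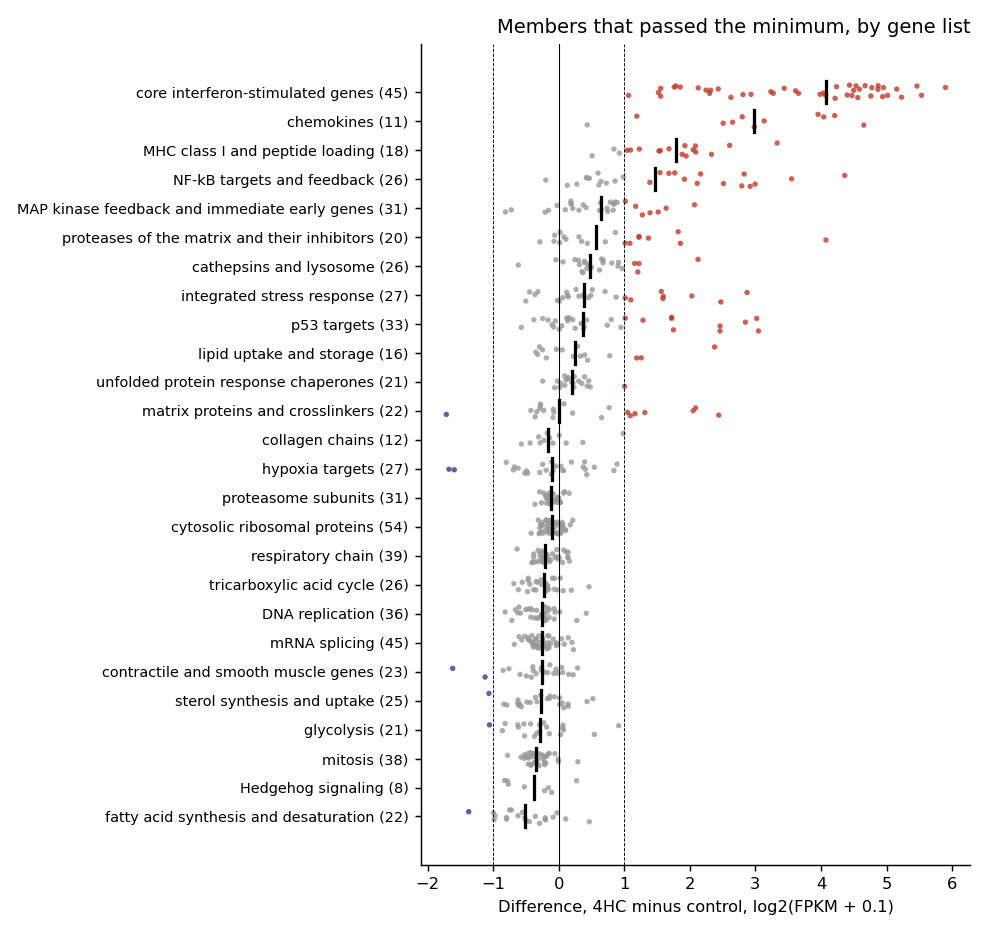
Difference to control in log2(FPKM + 0.1) for each member that passed the minimum, in 26 gene lists ordered by median, with the number of members in brackets. Points are genes (red at or above 1, purple at or under -1) and black bars are list medians. The medians run from 4.07 for core interferon-stimulated genes to -0.51 for fatty acid synthesis and desaturation. They include members that passed the minimum only through 4HC.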

How the data were processed

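Poly(A)-selected RNA of E0771 cells was sequenced with a strand-specific kit in 4 groups of 3 libraries each. Per the submitters' processing notes and the study's methods, reads were mapped to mm9 with TopHat2, counted with featureCounts and compared with edgeR (versions not given in the sources used here). The deposited table holds FPKM values, which the authors averaged over the libraries of each group. Depth per library is not given in the table, so no interval, SD or test could be computed, and the limma test that had been planned for values per library was not run. The table also holds the authors' own ratios, fold changes and p-values, which were not used. Each group mean was read from 1 column, and 4 columns that repeat group means were left out. Genes were kept at 0.5 FPKM or more in either group, differences were taken as log2(FPKM + 0.1), and the threshold was 2-fold. Scripts in Python 3.11.15 with pandas 2.3.3, numpy 2.4.6 and matplotlib 3.10.9 were tested on simulated data. The comparison, its rule and the 52 gene lists (1563 members, 1500 distinct, 2 not matched) were chosen with earlier results of these data known. Named genes were the 20 highest and 20 lowest of at least 1 FPKM, passing over Gm, Rik, LOC, Mir and Snor symbols and names turned into dates, the 10 largest gains and losses in FPKM, the 3 most abundant and 3 most different members of each list, control genes, the ISGs the study followed by qPCR, and genes beside the thresholds. Other list members named were chosen after their values were seen. Group medians of the antibody and IFNβ groups use the same control libraries as 4HC. Promoter sequences are from RefSeq (GRCm38.p6) and were matched by symbol. Another pseudocount, minimum, fold threshold and scaling were tried, and 3 alternatives were added after seeing the data. Some genes that the naming rule covers are not reported here.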

Additional observations from a re-analysis of the deposited data

How the results depend on the processing

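No paired analysis was possible because the table holds group means only, and for the same reason leaving out single libraries could not be run. The planned reading of the repeated columns is left out, as each group mean was taken from 1 column. No named gene past 2-fold changed sign, but most of these settings could not have reversed one. A pseudocount or a minimum leaves the sign of a difference as it is. The scaling factors, at -0.04 and -0.05 in log2, are too small to reverse a 2-fold difference. The median over all genes stayed between -0.04 and 0.07. Of the list medians beyond 0.1, that of the epithelial state list (4 genes, 0.33) was -0.39 with a minimum of 1 or 2 FPKM or set on control, and -0.19 with it set on the mean of both groups. That of the collagen chains (-0.16) was 0.01 with no minimum, and those of the cytosolic ribosomal proteins (-0.11) and proteasome subunits (-0.12) were 0.02 and 0.01 less the median of like genes. The count of higher genes, 559, was 255 with a pseudocount of 1 FPKM, 295 with a minimum of 2 FPKM, 931 with no minimum, 1174 at 1.5-fold, 204 at 4-fold and 286 with the minimum set on control, a choice made after seeing the data. The count of lower genes, 49, was 14, 23, 85, 322 and 5 under the first 5 of these, and 24 without Gm, Rik, LOC, Mir, Snor and date names. Of 138 named genes past 2-fold, 37 no longer were with a pseudocount of 1 FPKM, which weighs most on low genes. Of all calls, 91.9% were higher, 78.5% at 1.5-fold. Less the median of genes of like length and level, 460 were higher and 73 lower. Scaling by the median ratio gave 595 and 46. The table gives no library depth, and no difference could be set against the spread between libraries.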

Other observations

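Genes of the cleavage-stage embryo, a list of 18 of which none reached 0.5 FPKM, had a summed level of 0.405 FPKM in control, 2.45 FPKM with 4HC, 2.37 FPKM with the antibody added and 0.385 FPKM with IFNβ. Zscan4b, a factor of early cleavage, had a mean of 0.00569 FPKM in control and 0.175 FPKM with 4HC. Zfp352, also expressed at cleavage, had 0.0503 and 0.204 FPKM. The Zscan4 genes are near-identical copies, so that reads may be split among them. In the whole table, 8327 genes were listed at 0 in control, 6339 with 4HC, 6408 with the antibody and 8516 with IFNβ.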
